A study of Mus musculus with 4 samples.

Results

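Messenger RNA of 10 genes that mark the 2-cell-like state of mouse embryonic stem cells, all outside the Zscan4 family, was examined in cells with and without the fusion protein NUP98-HOXA9. They are Usp17la, Usp17lb, Usp17lc, Usp17ld, Usp17le, Zfp352, Tmem92, Tcstv1, Tcstv3 and Sp110, chosen by symbol from the 55401 genes of the deposited tables, and all 10 were found. The cells were of the EB3 line, a mouse embryonic stem cell line kept undifferentiated on gelatin with the cytokine LIF. The 4 libraries comprised 1 from the parental line, 1 from EB3-derived cells with an empty vector, and 2 from EB3-derived cells labelled NUP98-HOXA9 (fusion replicates 1 and 2). The genotype label gives the parental and empty-vector cells as wild type, and they form the control group (n = 2) for the fusion cells (n = 2). The labels do not give the vector, its promoter, or say if replicates 1 and 2 came from different clones or cultures. P-values therefore reflect no more than the spread among these samples, which may be technical. Only the empty-vector library controls for the vector.

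In cultures of embryonic stem cells a small share of cells passes at any time through a state that resembles the 2-cell embryo, the stage at which the mouse genome is first transcribed in bulk. The transcription factor Dux binds and switches on many genes of this state, among them the Zscan4 genes, the retrotransposon MERVL and transcripts that start in its long terminal repeats. The 10 genes include a family of deubiquitinating enzymes (Usp17l, also called DUB), a zinc finger gene (Zfp352), genes named after the 2-cell stage (Tcstv1 and Tcstv3), a membrane protein gene (Tmem92) and a nuclear body gene (Sp110). In a bulk library, more cells in the state and more RNA per cell cannot be told apart.

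The 5 Usp17l genes lie on chromosome 7 (GRCm38), in a pair formed by Usp17ld (103249737 to 103252505, minus strand) and Usp17lc (103415072 to 103419880, plus strand), and a group of 3 formed by Usp17le (104768049 to 104777470, minus), Usp17lb (104840257 to 104842603, minus) and Usp17la (104857009 to 104862667, plus). Stretches of 90 bases upstream of their RefSeq starts are shown because the copies are close to identical there as well as in their coding frames. All are RefSeq promoter sequence of build GRCm38.p6, 5′ to 3′ on the gene's strand, for Usp17la (chr7:104856911-104857000, plus), Usp17lb (chr7:104842584-104842673, minus), Usp17lc (chr7:103416549-103416638, plus) and Usp17ld (chr7:103252585-103252674, minus). The Usp17lc stretch lies within the GENCODE span of its gene, and the Usp17lb stretch overlaps that of its own. The stretches were cut to end on the same run of letters. They end 15 (Usp17la), 0 (Usp17lb), 57 (Usp17lc) and 79 (Usp17ld) bases before the RefSeq start. Capitals mark a TATA-like run of 7 letters, at the same place in each stretch but not at the same distance from the start.
Usp17la: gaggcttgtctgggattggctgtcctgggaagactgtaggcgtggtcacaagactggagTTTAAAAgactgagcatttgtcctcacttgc
Usp17lb: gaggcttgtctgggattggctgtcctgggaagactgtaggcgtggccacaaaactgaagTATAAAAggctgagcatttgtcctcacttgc
Usp17lc: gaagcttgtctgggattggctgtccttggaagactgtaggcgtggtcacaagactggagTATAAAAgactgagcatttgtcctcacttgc
Usp17ld: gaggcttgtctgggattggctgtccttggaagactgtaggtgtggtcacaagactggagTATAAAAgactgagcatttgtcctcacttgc
The 250-base windows upstream of these 4 starts aligned locally over 156 to 228 bases with 91.7% to 97.3% identity. The word TATAAA was found on the sense strand in 3 of the 4 windows, against 7.59% of 32851 windows of the same length. Its first base lies 31 (Usp17lb), 88 (Usp17lc) and 110 (Usp17ld) bases before the start. These windows are close copies of each other and are not independent.

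Zfp352 lies on chromosome 4 (90218820 to 90225702, plus strand) and Sp110 on chromosome 1 (85576899 to 85598817, minus strand). Their upstream windows of 250 bases are shown because they share a repeated word. The windows are chr4:90218570-90218819 (plus) for Zfp352 and chr1:85603892-85604141 (minus) for the more distal of 2 RefSeq starts of Sp110. This start lies outside the GENCODE span of Sp110. The gene Sp140, on the plus strand, begins 1561 bases above that span, so the Sp110 window lies past the start of Sp140. Capitals mark the 12-base word ACACCTTTAATC and the word TATAAG.
Zfp352: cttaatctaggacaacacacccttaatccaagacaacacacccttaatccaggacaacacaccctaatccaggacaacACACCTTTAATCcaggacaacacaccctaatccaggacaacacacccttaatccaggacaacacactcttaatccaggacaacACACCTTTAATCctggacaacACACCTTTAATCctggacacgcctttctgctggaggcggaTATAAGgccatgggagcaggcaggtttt
Sp110, distal start: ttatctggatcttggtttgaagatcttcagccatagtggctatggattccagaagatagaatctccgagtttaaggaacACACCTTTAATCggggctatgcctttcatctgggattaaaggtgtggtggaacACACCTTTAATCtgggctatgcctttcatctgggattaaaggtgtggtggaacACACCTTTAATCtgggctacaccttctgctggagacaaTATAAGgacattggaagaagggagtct
The 12-base word occurs 3 times on the sense strand in each window, and 2 more times on the antisense strand of the Sp110 window. It is the end of the longest word, of 15 bases, that stands 3 times in both. It is found on the sense strand in 0.131% of the 32851 windows (0.155% on either strand). TATAAG lies with its first base 28 bases before the start in Zfp352 and 27 in Sp110, and 4.01% of windows hold it on the sense strand. The word was picked from these 2 sequences, and the windows of the other Sp110 start and of the 4 Usp17l genes do not hold it. A Dux-type motif, TGATT and ATCA with any 2 bases between them, and the word TGATTTAT, of the kind bound by HOX9 with PBX, were searched on both strands. They match 0.177% and 0.837% of all windows and are in none of the 7 windows of the 6 genes covered, which says nothing about binding elsewhere. No such windows were used for Usp17le, Tmem92, Tcstv1 and Tcstv3. Tmem92 lies on chromosome 11 (94777217 to 94782703, minus), Tcstv1 on chromosome 13 (119893388 to 119894785, minus) and Tcstv3 on chromosome 13 (120316878 to 120318178, plus). All 10 are annotated as protein-coding.

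All 10 genes stood higher in both fusion libraries than in both control libraries, which holds for 27.1% of the 16511 genes tested. Of the 10, 9 passed the filter on low counts and 4 rose at an adjusted p of 0.05 (edgeR's quasi-likelihood test, Benjamini-Hochberg over all genes), against 2.83% of all tested genes called higher, and 0 fell. At an unadjusted p of 0.05 in the same test, 9 were higher and 0 lower, against 2091 higher and 1223 lower of the 16511 genes tested. The 4 were Usp17la, Usp17lb, Zfp352 and Tmem92. Of the 9, only Sp110 reached the filter's level of 0.503 CPM (counts scaled to library size) in both control libraries (the filter reads CPM without TMM scaling, where Usp17le had 0.501 in the parental library), so the other 8 passed it only because of their fusion values and could hardly have been called lower. Counts of rises describe these genes and do not support a direction. The calls rest on single libraries: without the parental library 0 of the 9 passed (8 at an unadjusted p of 0.05; 1.91% of all genes called higher), without the empty-vector library Usp17lc and Tcstv3 passed but none of the 4 did (2.04% of all genes), and without fusion replicate 2 Tmem92 alone passed (2.15% of all genes called higher). Without fusion replicate 1 the genes that passed were Usp17la, Usp17lb, Usp17ld and Tmem92 (0.875% of all genes). A library left alone in its group is assumed to vary like the other group. With DESeq2's size factors in edgeR 6 passed (3.17% of all genes), and with DESeq2's Wald test 7 passed (5.28%).

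**Figure D1:**
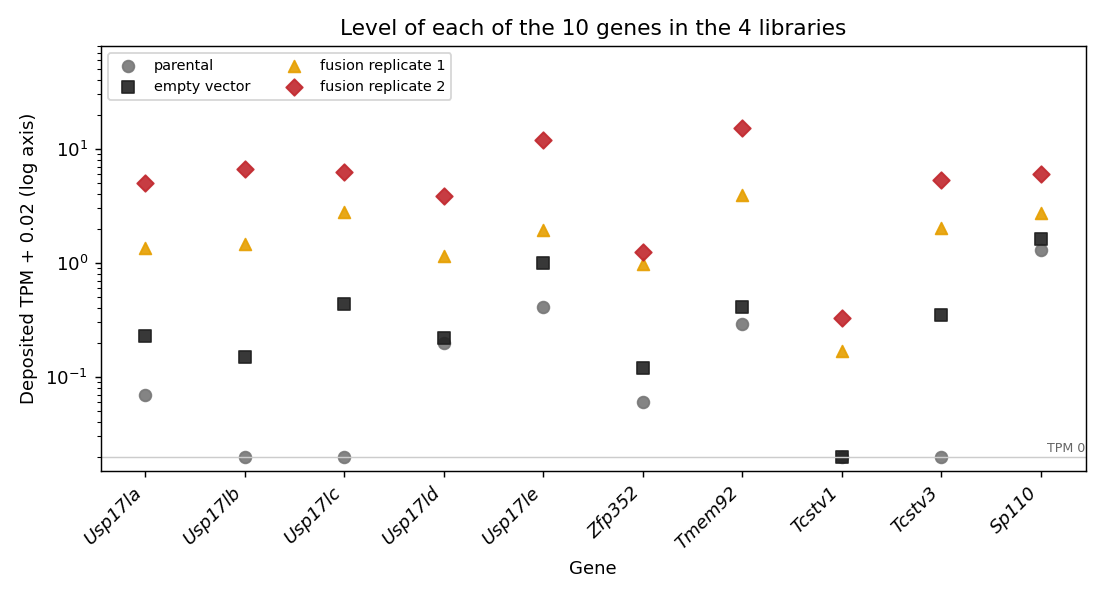
Deposited TPM plus 0.02 on a log axis for each of the 10 genes, with 1 point per library (grey and black for the controls, orange and red for the fusion libraries). The red points of fusion replicate 2 are highest for all 10 genes, and the control points are lowest.

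The Usp17l genes encode cytokine-inducible deubiquitinating enzymes, which remove ubiquitin from other proteins. Usp17la (Dub1) had CPM values, scaled by TMM, of 0.104 in the parental library, 0.371 with the empty vector, 2.31 in fusion replicate 1 and 8.39 in replicate 2. Its groups did not overlap, and replicate 2 was the highest (log2 fold change 4.46, SE 0.88, adjusted p = 0.0458). Usp17lb (Dub1a) was at 0 and 0.106 CPM in the controls and at 1.3 and 6.16 CPM with the fusion. With 2 counts over the control group and 161 over the fusion group its ratio was 73.1 (95% exact binomial interval 19.9 to 609, which covers counting error only; adjusted p = 0.0476, edgeR). Usp17la and Usp17lb thus had the same order of libraries, with the parental library lowest.

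Usp17lc (Dub2), at 0 CPM in the parental line and 0.583 CPM with the empty vector, stood at 3.71 and 8.71 CPM in fusion replicates 1 and 2. It missed the threshold (log2 fold change 4.39, SE 1.05, adjusted p = 0.072), and the control libraries differed, with 0 against 11.26 estimated counts. Without the empty vector, where the remaining control is at 0, the adjusted p was 0.00835, and without the parental library 0.0506. Usp17ld (Dub2a) was level in the controls, at 0.26 and 0.265 CPM, and stood at 1.45 and 4.83 CPM with the fusion (log2 3.55, SE 0.75, adjusted p = 0.0531). Its log2 fold change was 4.16 without fusion replicate 1, 2.44 without replicate 2, 3.52 without the parental library and 3.54 without the empty vector. Usp17le (Dub3) was the family's most abundant copy in the controls, at 0.521 and 1.22 CPM. It reached 2.21 and 13.6 CPM with the fusion (log2 3.18, SE 0.90, adjusted p = 0.109), so fusion replicate 1 lay close above the empty vector. Usp17le made up 58.3% and 47.2% of the family's estimated counts in the controls, 19.9% in fusion replicate 1 and 32.7% in replicate 2.

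Summed over the 5 copies, the family had 16.79 and 48.9 estimated counts in the parental line and with the empty vector and 218.86 and 915.72 in fusion replicates 1 and 2. Fitted as 1 row, the sum rose (log2 3.92, SE 0.76, adjusted p = 0.0439, edgeR). Summing removes the split of shared reads between the copies. The call on the sum ended without the parental library (adjusted p = 0.37), without the empty vector (0.226) and without fusion replicate 2 (0.101), and held without fusion replicate 1 (0.0391).

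Shared sequence sets how far the copies can be read one by one. The longest open reading frames of the 5 transcripts were 90.8% to 98.4% identical in pairs, the highest being Usp17lc with Usp17ld. Of all windows of 75 bases in their GENCODE transcripts, 35.7% in Usp17lc and 43.4% in Usp17ld also occurred in another gene, against 7.67% in Usp17la, 14.9% in Usp17lb and 15.3% in Usp17le. The span of 75 is the deposited gene length less its effective length, 74, plus 1. Of the copies outside the 5 genes, Usp17le-ps had 0 counts in all libraries, and Gm5053 had 1.21, 1.08, 7.14 and 9.28 estimated counts, in the order parental, empty vector, fusion replicates 1 and 2.

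**Figure D2:**
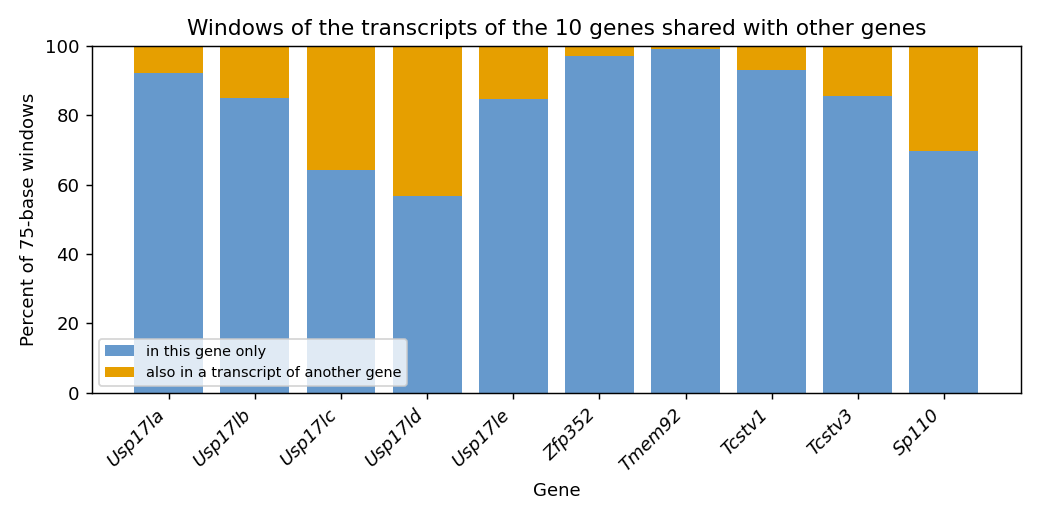
Percent of the 75-base windows of each gene's GENCODE transcripts that occur in that gene only (blue) or also in a transcript of another gene (orange). Usp17ld, Usp17lc and Sp110 share the most, at 43.4%, 35.7% and 30.4%, and Tmem92 the least, at 0.798%.

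Tmem92, which encodes a single-pass membrane protein, had 5 and 10 counts in the control libraries and 93 and 384 in the fusion libraries, or 0.26, 0.53, 4.66 and 17.5 CPM. Fusion replicate 2 was 3.76 times replicate 1 (95% interval 2.99 to 4.76). The gene rose (log2 4.79, SE 0.79, adjusted p = 0.0309), and it passed without either fusion library (adjusted p = 0.0299 without replicate 1 and 0.0481 without replicate 2), but not without the parental (0.141) or the empty-vector library (0.105). Only 0.798% of its windows occur in another gene, so the split of reads touches it little. Its neighbours with counts, Gm11545 and Gm11546, had 0 counts in both controls and 7 and 13, and 2 and 18, counts in fusion replicates 1 and 2; neither passed the filter.

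Zfp352, a zinc finger gene transcribed in the 2-cell embryo, had 1 and 2.92 estimated counts in the controls and 26.5 and 38.93 in the fusion libraries, or 0.0521, 0.159, 1.3 and 1.78 CPM. It rose (log2 3.80, SE 0.70, adjusted p = 0.0382), with adjusted p between 0.0555 and 0.139 when each library was left out in turn. Its fusion libraries were the closest to each other of the 9 tested genes, with a 95% interval of 0.81 to 2.33 for the ratio of replicate 2 to replicate 1. The interval holds 1, and it lies below the intervals of Usp17la, Usp17lb, Usp17le and Tmem92. No test between genes was made.

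Tcstv1 and Tcstv3, named as variable genes of the 2-cell stage, were at the limit of detection in the controls. Tcstv1 had 0 counts in both and 2.38 and 4.02 in fusion replicates 1 and 2, so it was not tested. For 0 counts against 6 over the groups, after rounding, the exact 95% interval of the ratio starts at 1.07, and no fold is given. Tcstv3 had 0 and 1.86 estimated counts in the controls and 19.21 and 53.76 in the fusion libraries, a ratio of 33.2 over rounded group counts (95% interval 8.86 to 279). Taken singly it missed the threshold (log2 fold change 4.87, SE 1.02, adjusted p = 0.0518). The sum of both rose (log2 5.00, SE 0.99, adjusted p = 0.0464), and this call ended without the parental library (0.0787) and without either fusion library (0.0948 and 0.146). Their frames are 94.7% identical, and 6.94% and 14.3% of their windows occur elsewhere, with Gm21818 and the other of the pair sharing the most. Gm21818 itself stood at 0.365 and 0.849 CPM in the controls and at 3.01 and 6.89 CPM with the fusion (log2 3.02, adjusted p = 0.0548).

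Sp110 encodes a nuclear body protein that interferon induces, known from resistance to intracellular bacteria. It was at 0.833 and 0.902 CPM in the controls and at 1.85 and 4.65 CPM with the fusion, the smallest difference of the 9 tested genes (log2 1.90, SE 0.58, adjusted p = 0.131). Per transcript length it was the highest of the 10 in the controls, at 1.28 and 1.59 TPM. Of its windows, 30.4% occur in other genes, above all Gm16026, which had 0 and 4.17 estimated counts in the controls and 32.33 and 61.21 in the fusion libraries (log2 4.30, adjusted p = 0.0572), and how RSEM divided reads among these 2 genes is uncertain. The related gene next to it, Sp140, stood at 21.71 and 13.79 estimated counts in the controls and at 7.7 and 35.69 in the fusion libraries, where the groups overlap (log2 0.12, adjusted p = 0.949).

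Of 18 tested interferon-induced genes on a list that does not hold Sp110, 0 rose (0 at an unadjusted p of 0.05) and 2 fell (5 at an unadjusted p of 0.05), Ddx58 and Irf1, against 0.581% of all tested genes called lower. Over all 16511 genes tested, 2091 were higher and 1223 lower at an unadjusted p of 0.05 (edgeR). Ddx58 (RIG-I), which senses viral RNA, fell from 57 and 56.5 CPM down to 10.9 and 7.48 (log2 -2.63, SE 0.26, adjusted p = 0.00851). Irf1, an interferon regulatory factor, fell from 50.6 and 38.9 to 18.7 and 19.5 CPM. The list's median log2 fold change was -0.36, against 0.00 over all genes tested. Trim25 (158, 179, 180 and 177 CPM) and Stat2 (50.7, 35.2, 24.8 and 45.9 CPM) did not pass.

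**Figure D3:**
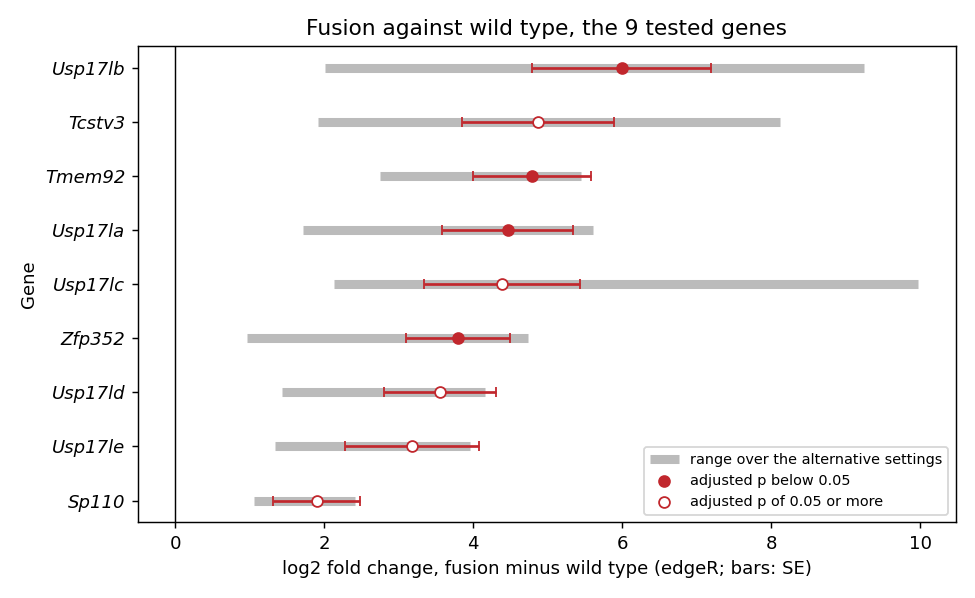
Log2 fold change (fusion minus wild type) of the 9 tested genes with its SE, filled where the adjusted p was below 0.05, over a grey bar that spans the alternative settings. Every bar lies above 0. The lowest value, 0.97 (Zfp352), is a limma difference in log2 of TPM plus 1, where the added 1 shrinks differences between low values. The highest, 9.97 (Usp17lc), is against a control at 0, where the value depends on the prior count.

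The fusion libraries differed from each other. All 10 genes were higher in replicate 2 than in replicate 1, as were 51.7% of the genes tested. Among genes that reached 1 CPM in either of the 2, 8 of 9 were at least 2-fold higher in replicate 2, against 7.36% of all such genes; the exception was Zfp352. With 1 library on each side these ratios have no replicate check. Usp17le had the largest ratio, 6.18 (95% interval 4.49 to 8.69), followed by Usp17lb at 4.72 (3.09 to 7.49). Ratios were 2.35 (1.79 to 3.11) for Usp17lc, 2.51 (1.71 to 3.76) for Sp110 and 2.59 (1.51 to 4.62) for Tcstv3. The Zscan4 genes had ratios from 4.05 (Zscan4b) to 5.81 (Zscan4e), and their intervals lie above that of Usp17lc. Summed over the 10 genes, the level was 2.03, 4.24, 19.8 and 68.3 CPM in the order parental, empty vector, fusion replicates 1 and 2.

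**Figure D4:**
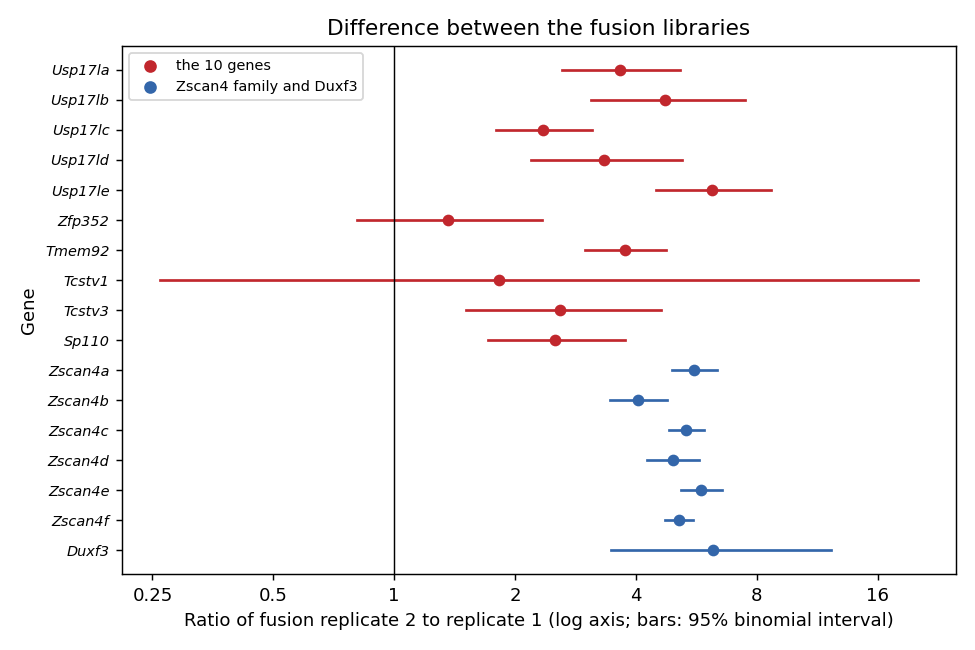
Ratio of fusion replicate 2 to replicate 1 on a log axis with its 95% exact binomial interval, for the 10 genes (red) and for the Zscan4 genes and Duxf3 (blue). Zfp352 and Tcstv1 have intervals that hold 1, and Usp17le has a ratio of 6.18.

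The controls differed too. Usp17le, which alone reached 1 CPM in a control library, was 2.34 times as high with the empty vector as in the parental line (95% interval 1.07 to 5.51), and 4.87% of all genes at that level were at least 2-fold higher there. Against the parental library alone and against the empty vector alone 0 of the 9 genes passed (9 and 7 at an unadjusted p of 0.05, edgeR, in a fit with 3 groups), and 0.509% and 0.388% of all genes were called higher. Log2 fold changes were larger against the parental library in all 9, for example 5.38 against 4.37 for Tmem92 and 3.91 against 2.69 for Usp17le. These comparisons share the fusion libraries.

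Per transcript length, the order in fusion replicate 2 was Tmem92 (15.25 TPM), Usp17le (12.01), Usp17lb (6.62), Usp17lc (6.22), Sp110 (5.96), Tcstv3 (5.3), Usp17la (4.95), Usp17ld (3.86), Zfp352 (1.23) and Tcstv1 (0.31). In replicate 1 Tmem92 (3.93 TPM) was first as well, with Usp17lc (2.8) and Sp110 (2.72) next. Between replicates 1 and 2 the levels of the first 8 span ranges that overlap in every pair but Tmem92 (3.93 to 15.25 TPM) and Usp17ld (1.13 to 3.86 TPM), so the rest of their order does not hold beyond the spread. Tcstv1 (0.15 and 0.31 TPM) lay below all others, and Zfp352 (0.96 and 1.23 TPM) below all but Usp17ld and Tcstv1.

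Other genes of the 2-cell-like state were read from lists chosen with earlier results of these data known. Of 29 tested 2-cell-stage transcripts, 6 rose and 0 fell, against 2.83% and 0.581% of all tested genes called higher and lower. At an unadjusted p of 0.05 (edgeR), 21 were higher and 2 lower, against 2091 and 1223 of the 16511 genes tested. The list's median log2 difference was 4.07, against -0.003 over all genes tested. In the controls 13 of the 29 averaged 1 CPM or more, and the rest could hardly fall. Gm2022 stood at 0.208 and 0 CPM in the controls and reached 2.36 and 12.7 CPM with the fusion (log2 6.08, adjusted p = 0.0468), and Gm8300 went from 0.625 and 1.33 to 7.32 and 30.4 CPM (log2 4.27, adjusted p = 0.0369). AF067061 and B020031M17Rik rose too, with log2 fold changes of 5.04 and 4.40. Others went the other way: the lowest log2 fold changes of the list were those of Dppa3 (-2.86), Usp26 (-2.58) and Zfp750 (-1.75), and none of them passed. Eif1a, a translation initiation factor of every cell, was at 189, 187, 179 and 151 CPM and did not pass, and neither did Fbxo15 (126, 111, 110 and 172 CPM). Duxf3, the annotated copy of Dux, named after its values were seen, had 0 and 2.69 estimated counts in the controls and 13.36 and 89.48 in the fusion libraries (log2 4.80, SE 1.27, adjusted p = 0.092). In the Zscan4 family 3 of 6 genes rose, Zscan4c, Zscan4d and Zscan4e, against 2.83% of all tested genes, while Zscan4f (2.03, 8.38, 36.1 and 185 CPM, adjusted p = 0.0507) and Zscan4a (adjusted p = 0.0545) did not pass.

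Of 11 tested genes on a list drawn up as activators of the state, Tbx3 and Smad7 rose and 0 fell, against 2.83% and 0.581% of all tested genes called higher and lower. At an unadjusted p of 0.05 (edgeR), 4 were higher and 1, Duxbl3 (log2 -1.71), was lower, against 2091 and 1223 of the 16511 genes tested. The list's median log2 was 0.06. It also holds Duxbl2, Kat5 and Usp7. Whether these and Duxbl3 promote the state was not checked, so the counts and median may not describe promoters alone. Tbx3, a T-box factor, went from 47.6 and 82.5 CPM up to 524 and 418 CPM, higher in replicate 1 (log2 2.86, SE 0.30, adjusted p = 0.00863). Smad7, an inhibitor of TGF-beta signalling, went from 49.4 and 53.5 to 112 and 106 CPM (log2 1.08, adjusted p = 0.0298). Of 34 tested genes reported to restrain the state, 0 rose (3 at an unadjusted p of 0.05) and 1 fell (8 at an unadjusted p of 0.05), with a median log2 of -0.07, against 0.581% of all tested genes called lower. That gene was Lin28a, an RNA-binding protein, which fell from 372 and 281 CPM down to 130 and 154 (log2 -1.20, SE 0.21, adjusted p = 0.0335). Usp7 and Trp53 of the first list and Ncl and Trim28 of the second did not pass, with log2 fold changes between -0.41 (Ncl) and 0.19 (Trim28).

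**Figure D5:**
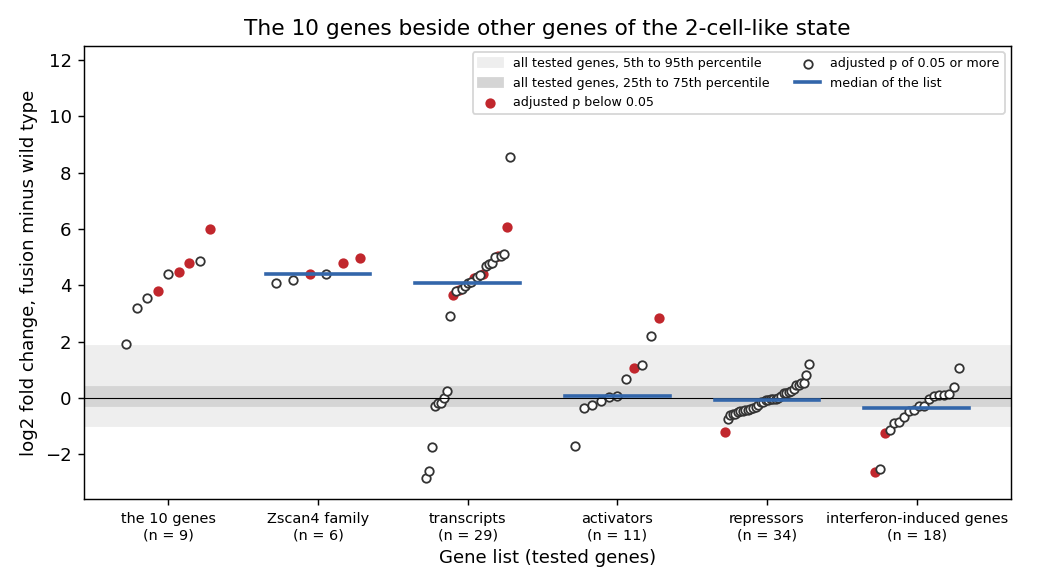
Log2 fold change (fusion minus wild type) of each tested gene in 6 lists, red where the adjusted p was below 0.05, with the list's median in blue for all lists but the 10 genes and the spread of all tested genes in grey. The 9 tested of the 10 genes, the Zscan4 family and most 2-cell-stage transcripts lie above the grey band, and activators, repressors and interferon-induced genes have medians between -0.36 and 0.06.

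Among 14649 candidate genes outside the 10 and the Zscan4 family, the 8 whose log2 CPM profile over the 4 libraries lay nearest to the mean profile of the 9 tested genes were Gm21293, Gm21304, Gm8994, Gm6189, Gm20767, Gm7982, Gm6763 and Gm8764. Gm21293 and Gm21304 have identical values, as near-identical copies can when reads are shared out: 0.521 and 1.06 CPM in the controls and 4.36 and 18.6 CPM in the fusion libraries (distance 0.341). Gm6763 and Gm8764 are identical too (0.729, 1.96, 6.22 and 31.2 CPM, distance 0.562), so the 8 are not all separate profiles. Gm8994 went from 0.521 and 1.33 to 6.87 and 19.5 CPM (distance 0.353). Gm8994, Gm20767 and Gm6763 are also on the list of 2-cell-stage transcripts. With 4 libraries likeness is loose: 1104 candidates had a Pearson correlation above 0.9 with the mean of the 9, and the 8 highest by correlation shared 0 genes with these 8.

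The 12-base word of the Zfp352 and Sp110 windows was found on the sense strand upstream of 42 gene symbols, of which 29 could be matched to the tables. Of these, 8 beside Zfp352 and Sp110 were tested, and 4 of the 8 rose, against 2.83% of all genes: Gm20765 and Gm21312, with identical values (1.2, 1.43, 7.07 and 40.2 CPM), and Gm21293 and Gm21304, given above. They make up 2 pairs of near-identical copies and are not independent. Gm4340 (0, 2.23, 5.51 and 26.9 CPM, adjusted p = 0.155) and Gm8764 (0.729, 1.96, 6.22 and 31.2 CPM, adjusted p = 0.0593) did not pass but had the same order of libraries. Pemt (log2 -0.20) and Zbed3 (log2 -0.79), each with 1 copy of the word, did not pass. All 8 were named for the word, chosen after the sequences and values of Zfp352 and Sp110 were seen.

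Genes beside the 10 mostly had few counts. Of 16 nearest neighbours with a count, 5 were tested and 0 passed (Gm21761, beside Tcstv1 and itself a 2-cell-stage transcript, had a log2 of 3.98 and an adjusted p of 0.0561). Gm4887, between Usp17le and Usp17lb, had 21.38 and 16.72 estimated counts in the controls and 18.63 and 14.94 in the fusion libraries. Over genes of at least 10 CPM on chromosomes 1, 4, 7, 11 and 13, the median log2 difference between fusion replicates 2 and 1 lay between -0.05 and 0.02. Libraries held 19021386 to 21151729 estimated counts. Stem cell markers, 10 of 10 tested and 0 called, summed to 5790 and 6860 TPM in the controls and 6980 and 8140 TPM in the fusion libraries. Fibroblast markers summed to 33.4 and 23.1 against 32.7 and 48.4 TPM, with Dcn, Postn and Lum under 1 TPM in every library, and trophoblast markers to 120 and 32.6 against 212 and 95.2 TPM, with 0 called in both lists. Endoderm markers, 8 of 8 called higher (against 2.83% of all tested genes), summed to 16.8 and 13.1 against 216 and 212 TPM, close to level between the fusion libraries. Their part in the levels of the 10 genes was not tested.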

How the data were processed

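Messenger RNA of 4 libraries was prepared with a stranded poly(A) kit, per the labels' protocols. For each library the authors deposited an RSEM gene table with expected counts, in which reads of several genes are shared out (9.16% to 10.2% of values are not whole), and with TPM and FPKM, per the file headers. The submitters' processing notes list the aligner STAR 2.7.10a, the quantifier RSEM 1.3.3, the package DESeq2 1.36.0 and the build GRCm38/mm10. Annotation release and strand setting: not given in the sources used here. Deposited FPKM values were not used. Of 55401 gene identifiers, 99.5% matched a GENCODE M21 symbol.

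Expected counts, made whole by rounding, went into edgeR 4.0.16 under R 4.3.3 (TMM scaling, filterByExpr at a minimum count of 10, robust quasi-likelihood fit, 2 residual degrees of freedom), fusion against wild type, with Benjamini-Hochberg adjustment over 16511 genes and a threshold of 0.05. The SE is the absolute log2 fold change divided by the square root of the F statistic. Intervals and the floor of 3 counts cover counting error only. Alternatives used DESeq2 1.42.0 and limma 3.58.1 (log2 of TPM plus 1 or 0.1). Ratios between 2 libraries carry no prior count; counts of 2-fold differences, profiles and chromosome medians used log2 CPM with a prior count of 2. Promoter windows came from RefSeq (6 of the 10 genes matched, first 250 bases used), and alignments were made with biopython 1.88.

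The 10 genes and all lists were chosen with earlier results of these data known. Named are the 10 genes, up to 4 genes past the threshold and 2 not past it in each list, and the 8 nearest profiles by Euclidean distance at a mean of 1 CPM or more. Some further genes of the lists were named after their values were seen. The lists cover 2-cell-stage transcripts, the Zscan4 family, activators, repressors and interferon-induced genes, beside markers of stem cells, fibroblasts, trophoblast and endoderm and a 2-cell-like marker list that repeats genes given here. Plots were drawn with matplotlib 3.10.9 and pandas 2.3.3 in python 3.11.15.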

Additional observations from a re-analysis of the deposited data

How the results depend on the processing

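The log2 fold changes of the 9 tested genes were positive under every alternative that gave a value, 14 for each gene but Tcstv3, which 13 tested. The alternatives reuse the same 4 libraries, in which each gene was higher in both fusion libraries than in both controls. Their sign could therefore hardly differ and gives no further support. The number of the 10 genes past the threshold, 4 in the analysis above, was 2 with library totals as scaling, 7 with no filter on low counts, 7 with DESeq2's Wald test, 0 against the parental library alone and 0 against the empty-vector library alone, and 0 to 4 when each library was left out in turn. It was 6 with DESeq2's size factors, 5 with a filter of 1 CPM in 2 libraries, 4 with a fit that was not robust, and 4 and 6 with limma on log2 of TPM plus 1 and plus 0.1. Sp110 passed only with no filter and Usp17le only with DESeq2. Over all genes, 564 passed in the analysis above, 1946 with no filter, 1363 with DESeq2, 104 against the parental library, 82 against the empty vector, and 163 to 552 when each library was left out. The cause of these differences was not tested. Leaving libraries out of the summed families was chosen after seeing the data. The replicate numbers of the fusion libraries pair with nothing, since the controls carry none. Depth limits Tcstv1, Tcstv3, Zfp352 and Usp17lb most, with 0 to 4 counts over the control group.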
